A study of Homo sapiens with 17 samples.

Results

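The genes described here belong to families of proteins that join cells to each other, many of them in epithelia: cadherins, claudins and other tight junction proteins, desmosomal cadherins and plaque proteins, and the catenins and EPCAM. Not every member is an epithelial junction gene, since CDH11 is a cadherin of mesenchymal cells and CDH23 one of hair cells. They were taken by symbol, as every gene named CDH, CLDN, DSC, DSG, PKP or TJP with a number, together with OCLN, F11R, JUP, DSP, EPCAM, CTNNA1, CTNND1, MARVELD2, MARVELD3 and CGN. Of 26457 genes listed in the deposited table, 71 had such a symbol, and 35 of these had a mean of at least 2.5 normalized reads over the 8 libraries. The 35 genes are among 14800 that passed this minimum and were tested. Just inside it were CDH11 with a mean of 4.40 and DSC3 with 7.68 normalized reads, and just outside it were DSG4 with 2.25 and DSG1 with 2.14.

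Adherens junctions are built from classical cadherins, which bind cadherins on the next cell through calcium-dependent contacts and are tied to actin inside the cell by catenins. Tight junctions lie at the apical end of the lateral membrane, where claudins and occludin seal the space between cells and scaffold proteins such as ZO-1 hold them to the cytoskeleton. Desmosomes link the keratin filaments of neighbouring cells through the desmogleins and desmocollins and a plaque of plakoglobin, plakophilins and desmoplakin. In the colon epithelium these junctions hold the cell sheet together and keep the gut contents out of the tissue, and TNF-α is known to loosen tight junctions.

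The cells were SW480, from a human colon cancer, whose p53 is the R273H mutant (mutp53). The mRNA-seq libraries came from a stable SW480 line with a doxycycline-inducible short hairpin against LacZ (control cells) and another with a short hairpin against p53 (mutp53-depleted cells). Cells of both lines were kept in puromycin at 1.5 μg/ml and induced with doxycycline at 1 μg/ml. TNF-α was given at 12.5 ng/ml for 0 h or 16 h, which makes 4 groups with 2 biological replicates (A and B) in each. Since each hairpin was carried by a separate line, depletion of mutp53 and other differences between the lines cannot be told apart.

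Each value is the number of reads on the exons of a RefSeq gene, multiplied by a factor that gives every library an equal total, and is called normalized reads here. Between 6108488 and 13809578 reads fell on genes in a library, so that 1 read equals 0.670 to 1.51 normalized reads, and the replicate A library was the larger in each group. The share of a library's total that fell on genes was 74.5% to 76.8% in control cells and 78.6% to 79.5% in mutp53-depleted cells, and the part of this difference in the depletion results was not tested. The chi-square per gene between the replicates of a group was 2.14 to 4.11, above what counting noise gives, and with 2 libraries in a group the precision of each mean is limited.

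The epithelial label of the cells was checked with 10 markers, of which 6 passed the minimum. Their summed level was 70229.6 and 65716 normalized reads without and 56208 and 56304 with TNF-α in control cells, and 52208 and 52194 without and 42671 and 43836 with TNF-α in mutp53-depleted cells. KRT8 and KRT18, keratins of simple epithelia, had the most reads in every library. KRT19, CDX2 and EPCAM were also abundant, whereas the colon differentiation markers KRT20, CDX1 and GPA33 and the stem cell marker LGR5 were at or near 0. VIL1, which encodes the microvillus protein villin, had 545 and 480.2 normalized reads without and 125 and 112 with TNF-α in control cells, and 8.71 and 12.3 without and 5.03 and 0 with TNF-α in mutp53-depleted cells, and so was nearly absent from the mutp53-depleted line. The summed levels of the markers of other cell types were low beside that of the epithelial markers. Of 6 fibroblast markers, COL1A2, COL3A1, DCN and LUM were at or near 0 in all libraries. The summed level of those 6 was 38.5 and 39.4 normalized reads without and 31.9 and 28.5 with TNF-α in control cells, and 158 and 177 without and 56.2 and 59.2 with TNF-α in mutp53-depleted cells, with COL1A1 the most abundant. PDGFRB had 4.35 and 6.06 normalized reads without TNF-α in control cells, against 69.7 and 69.9 in mutp53-depleted cells. With TNF-α it had 4.83 and 4.27 in control cells and 7.55 and 8.64 in mutp53-depleted cells. COL1A1 was also higher in mutp53-depleted cells, with 88.5 and 106 against 33.4 and 33.3 without TNF-α. Of 5 endothelial markers KDR and TEK were at 0 and PECAM1 and CLDN5 near 0. Their sum was 7.26 and 6.06 normalized reads without and 0.970 and 5.69 with TNF-α in control cells, and 29.5 and 21.9 without and 17.6 and 27.1 with TNF-α in mutp53-depleted cells, nearly all of it VWF. Of 5 leukocyte markers PTPRC was at 0 and CD3E and CD79A near it. The leukocyte sum was 57.3 and 42.4 normalized reads without and 57.0 and 59.8 with TNF-α in control cells, and 57.6 and 65.8 without and 83.8 and 83.9 with TNF-α in mutp53-depleted cells, with CD68 the most abundant outside control cells at 0 h, where CD14 had 34.8 and 21.2 and CD68 18.9 and 21.2. Of 4 markers of melanocytes or neurons, MLANA and RBFOX3 were at 0, and SNAP25 was the most abundant. Their sum was 32.7 and 27.3 normalized reads without and 28.0 and 37.0 with TNF-α in control cells, and 52.9 and 50.7 without and 56.2 and 61.7 with TNF-α in mutp53-depleted cells. At each time these 4 small sums were higher in both libraries of the mutp53-depleted line, and their part in the results was not tested. In bulk RNA, fewer cells that express a gene and less RNA per cell cannot be told apart.

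Levels were compared between genes per kilobase of exon, as mean ± SD of the 2 control libraries at 0 h. EPCAM, an adhesion protein of epithelial membranes that binds claudins, had the highest level of the 35 genes, at 3416 ± 119.5 normalized reads per kilobase. Next came CTNNA1, the α-catenin that couples cadherin complexes to actin, at 1776 ± 119. The claudins followed, with CLDN4 at 1634 ± 67.2 and CLDN7 at 1117 ± 27.9. CTNNA1 and CLDN4 lay within 2 SD of each other by the SD of CTNNA1, though not by that of CLDN4. The desmosomal plaque genes PKP3 (689.8 ± 52.0) and DSP (685 ± 86.4) came next and lay within 2 SD of each other. CTNND1, the p120 catenin that keeps cadherins at the membrane, stood at 389 ± 19.2. The cadherins were lower, with CDH13 at 191 ± 5.67, CDH3 at 141 ± 5.82 and CDH1 at 99.2 ± 2.68. The highest desmosomal cadherin, DSG2, had 177 ± 11.4 normalized reads per kilobase. The level of E-cadherin mRNA per kilobase was therefore far below that of the claudins CLDN4 and CLDN7 and of the catenin CTNNA1 that serves it.

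Of the 36 genes below the minimum, 17 were cadherins, 15 claudins and 4 desmosomal cadherins, and 19 of the 36 had no read in any library. These 19 include CDH2, the N-cadherin of mesenchymal and neural cells, CDH16, CLDN8, CLDN18 and DSG3, and a library with no read allows a level of up to 2.01 to 4.54 normalized reads (3 reads). CDH17, a cadherin of intestinal epithelium, had 1 read over all libraries, CDH5, the cadherin of endothelium, had 7, and CLDN2, a pore-forming claudin of leaky epithelia, had 7. All catenins, plaque proteins and other tight junction proteins of the list passed the minimum.

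**Figure D1:**
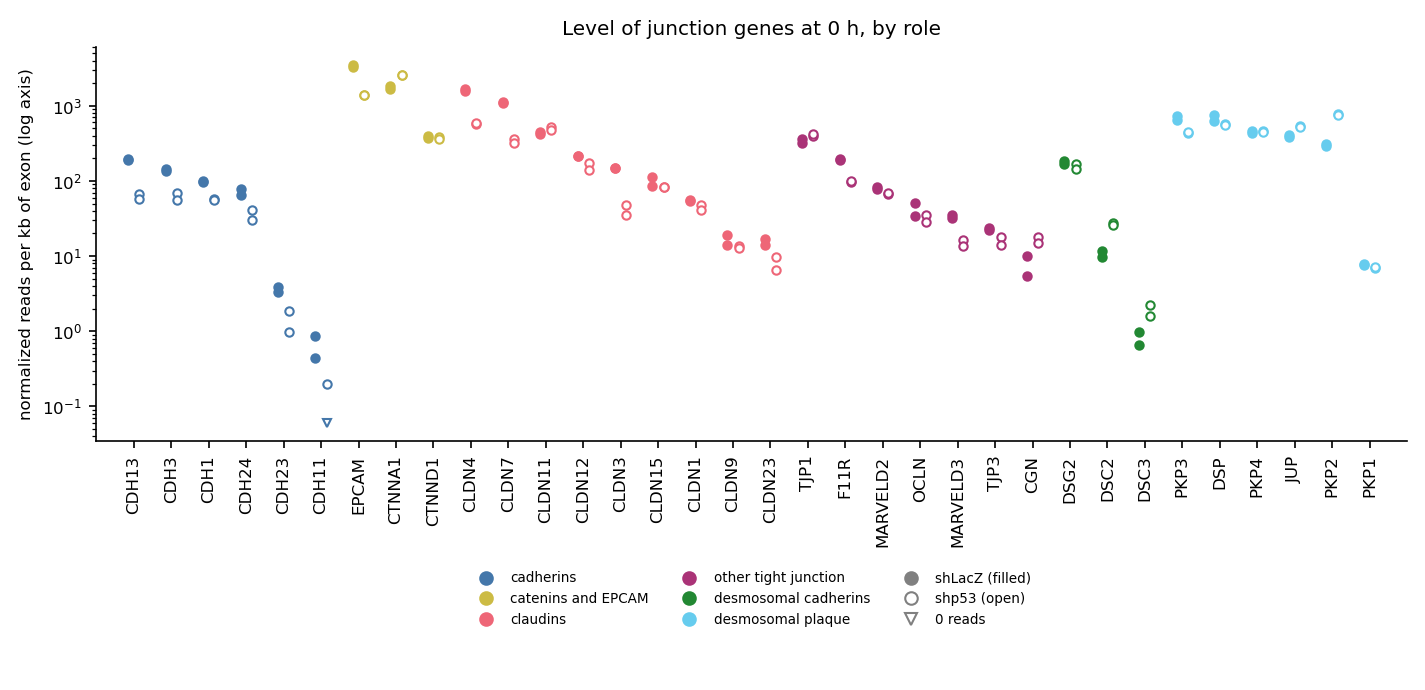
Level of the junction genes at 0 h, in normalized reads per kilobase of exon on a log axis, grouped by role and ordered within a role by the level in control cells. Filled points are the 2 control libraries, open points the 2 mutp53-depleted libraries, and a triangle marks a library with 0 reads. EPCAM is the highest in control cells, and the open points of CLDN4, CLDN7, CLDN3 and CDH13 lie well under the filled ones.

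The lines were compared at 0 h and at 16 h to see which junction genes differ once mutp53 is depleted. The test was limma's, on log2(normalized reads + 1), over all 14800 genes, and p was adjusted over them by the Benjamini-Hochberg method. A gene was called where the adjusted p was below 0.05 and the change was 2-fold or more on that scale, which understates the change of weakly expressed genes. SE is the standard error of a log2 fold change. At 0 h, 10 of the 35 genes (28.6%) were called lower in mutp53-depleted cells and 3 (8.57%) higher, against 9.55% lower and 5.89% higher of all genes tested. At 16 h, 11 (31.4%) were called lower and 1 (2.86%) higher, against 10.2% and 5.03% of all genes. Over the 35 genes the log2 fold change had a median of −0.30 at 0 h and −0.49 at 16 h, beside 0.03 and −0.01 over all genes tested. The comparisons at 0 h and 16 h use different libraries of the same lines, and 9 genes were called lower in both. The share of all genes called lower in both is not given here, so the 9 cannot be set beside it. The numbers called lower include CDH11, which passed the minimum through control cells alone. Without it, 9 of 34 (26.5%) were lower at 0 h, 10 (29.4%) at 16 h and 8 in both.

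Claudins span the membrane and set which ions and solutes can pass between cells. Of 9 claudins above the minimum, 3 fell at 0 h and 4 at 16 h and none was called higher, with medians of −0.47 and −0.82. These are 33.3% and 44.4% of the claudins, against 9.55% and 10.2% of all genes called lower. CLDN4, a claudin that tightens the seal against sodium, had 3073 and 2899.6 normalized reads without and 3449 and 2740.1 with TNF-α in control cells, and 1054 and 1080.5 without and 948 and 982 with TNF-α in mutp53-depleted cells. It fell 2.80-fold at 0 h as a ratio of means (log2 fold change −1.48, SE 0.09, limma adjusted p = 1.9e-10) and 3.21-fold at 16 h (log2 fold change −1.67, SE 0.09, limma adjusted p = 3.6e-11), and the groups did not overlap at either time. CLDN7, a claudin of the lateral membrane of gut epithelium that binds EPCAM, had 2277 and 2198 normalized reads without and 2519 and 2152 with TNF-α in control cells, and 724 and 649 without and 559 and 653 with TNF-α in mutp53-depleted cells. Its fall was 3.26-fold at 0 h (log2 fold change −1.71, SE 0.09, limma adjusted p = 4.9e-11) and 3.85-fold at 16 h (log2 fold change −1.94, SE 0.09, limma adjusted p = 1e-11). CLDN3, another sealing claudin, had 191 and 186 normalized reads without and 172 and 142 with TNF-α in control cells, and 61.0 and 45.2 without and 56.2 and 45.7 with TNF-α in mutp53-depleted cells, a change of −1.82 (SE 0.19, limma adjusted p = 3e-07) at 0 h and −1.61 (SE 0.19, limma adjusted p = 1.4e-06) at 16 h on the log2 scale. All 4 control libraries thus held more than 2 times the CLDN3, CLDN4 and CLDN7 mRNA of any mutp53-depleted library, with or without TNF-α.

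CLDN3 (chr7:73183327-73184600) and CLDN4 (chr7:73245193-73247023, both hg19) lie 60593 bases apart. The median log2 fold change of up to 50 tested genes around them, 25 on each side with the junction genes left out, was −0.68 at 0 h and −0.48 at 16 h. With that median taken off, CLDN3 had −1.15 and −1.12 and was still called at both times. CLDN4 had −0.81 and −1.19 and was called at 16 h alone. CLDN7 (chr17:7163222-7166264, hg19) lies among genes with medians of −0.06 and −0.02, close to 0, and its own change less those medians was nearly the same (−1.65 and −1.93). CLDN1, a claudin that the barrier of skin depends on, lies on chromosome 3 among genes that were higher in mutp53-depleted cells, with medians of 0.84 and 0.70. Its own log2 fold change was −0.30 (SE 0.12, limma adjusted p = 0.046) at 0 h and −1.13 (SE 0.12, limma adjusted p = 4e-07) at 16 h, where it was called, and less the neighbours' median it was −1.14 and −1.83, called at both times. The other 5 claudins, CLDN9, CLDN11, CLDN12, CLDN15 and CLDN23, were not called at either time by limma with all libraries and ranged from −0.91 to 0.21 at 0 h and from −0.82 to 0.13 at 16 h. CLDN23 was called at 0 h by edgeR (−1.01) and without replicate B of mutp53-depleted cells at 0 h (−1.19), and at 16 h without replicate B of control cells at 16 h (−1.09).

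To show the letters before the start of some of these genes, RefSeq promoter windows (GRCh38.p14) from 250 bases before to 50 bases after each start were searched on both strands. They were searched for CAGGTG, the E-box letters that SNAIL and ZEB repressors are known to bind, for TGANTCA, the letters of AP-1, and for the NF-kB motif. Windows were found for 21 of the 35 genes, 36 windows in all. Those without a window include CDH1, CDH3, CDH11, CDH13, CDH24, CLDN9, CLDN23, CTNND1, EPCAM, F11R, MARVELD3, PKP2 and PKP3. CAGGTG was in 11 of the 36 windows (30.6%), of 10 genes, and in 20.6% of all 35116 windows. TGANTCA was in 2 windows (5.56%, against 7.71%), those of CLDN4 and CLDN15, and the NF-kB motif was in 0 windows, against 5.91% of all. A match is a description of these letters and not a binding site. Stretches of 30 bases around matches are printed for CLDN4 and CLDN7, the claudins with the highest levels in control cells, and for JUP. JUP was among the genes whose response to TNF-α differed between the lines. Each is read in the direction of the gene with the matched letters in capitals.
CLDN4, TGANTCA, chr7:73830746-73830775, plus strand: ctgggctgTGATTCAgtgtctgtctcccgg
CLDN4, TGANTCA, chr7:73830823-73830852, plus strand: gagactggatagTGACTCAgggacccgggg
CLDN7, CAGGTG on each strand, chr17:7262479-7262508, minus strand: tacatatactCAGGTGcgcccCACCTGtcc
JUP, CAGGTG on each strand, chr17:41786008-41786037, minus strand: ctggcccCACCTGccgagCAGGTGagcgca
All 4 stretches lie before an annotated start. CLDN7 has a pair of annotated starts, and the window printed holds 5 matches, while that of the other start holds none. JUP likewise has a pair of starts, with 2 matches in the window printed and none in the other. DSG2, DSP and OCLN, called in no comparison, also had a window with 2 CAGGTG matches. In the GENCODE annotation of the same genome each stretch also lies in a non-coding part of an exon of longer transcripts, in 2 of 5 transcripts of CLDN4, 1 of 8 of CLDN7 and 2 of 12 of JUP. CLDN1, CGN and PKP1, described with TNF-α, had none of the searched letters in their windows.

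EPCAM (chr2:47596287-47614167, hg19) had 5976 and 5687 normalized reads without and 5552 and 4679 with TNF-α in control cells, and 2404 and 2367 without and 2511 and 2381 with TNF-α in mutp53-depleted cells. It fell 2.44-fold at 0 h (log2 fold change −1.29, SE 0.08, limma adjusted p = 2.4e-10) and 2.09-fold at 16 h (log2 fold change −1.06, SE 0.08, limma adjusted p = 2.8e-09), and no mutp53-depleted library reached a control library. The genes around it had medians of 0.19 and 0.12, in the other direction. CTNNA1 was higher in all mutp53-depleted libraries but under 2-fold, with log2 fold changes of 0.55 (SE 0.07, limma adjusted p = 3.8e-06) and 0.57 (SE 0.07, limma adjusted p = 2.5e-06), and CTNND1 had −0.05 (SE 0.07, limma adjusted p = 0.6) and −0.43 (SE 0.07, limma adjusted p = 3.7e-05). Without replicate A of the control cells at 16 h, EPCAM was at −0.94 at 16 h and not called.

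Of 6 cadherins above the minimum, 5 (83.3%) fell at 0 h and 4 (66.7%) at 16 h, and none was called higher. Of all genes tested, 9.55% and 10.2% were called lower. Both cadherin counts include CDH11, which passed the minimum through control cells alone and whose difference is a description. The count at 0 h also includes CDH24, whose call ended under 5 alternatives. CDH13, or T-cadherin, which is held to the membrane by a lipid anchor and has no cytoplasmic tail, had 770.0 and 803 normalized reads without and 897 and 906 with TNF-α in control cells, and 277 and 239.9 without and 265 and 254 with TNF-α in mutp53-depleted cells. Its fall of 3.04-fold at 0 h (log2 fold change −1.61, SE 0.09, limma adjusted p = 1.4e-10) and 3.47-fold at 16 h (log2 fold change −1.79, SE 0.09, limma adjusted p = 3.1e-11) was kept under every alternative tried. CDH3, or P-cadherin, the classical cadherin of basal epithelial layers, had 618 and 583 normalized reads without and 372 and 285 with TNF-α in control cells, and 292 and 234 without and 150.1 and 160.4 with TNF-α in mutp53-depleted cells. It fell at both times (log2 fold change −1.20, SE 0.13, limma adjusted p = 5e-07, and log2 fold change −1.06, SE 0.13, limma adjusted p = 2.1e-06). At 16 h CDH3 was at −0.87 without replicate A of the control cells and at −0.88 less the neighbours' median, and in neither case called. CDH1, or E-cadherin, the main cadherin of epithelia, lies 38238 bases from CDH3 on chromosome 16 and had 485 and 467 normalized reads without and 87.0 and 78.2 with TNF-α in control cells, and 275 and 265 without and 58.7 and 61.7 with TNF-α in mutp53-depleted cells. CDH1 was lower in mutp53-depleted cells at both times, with no overlap, but under 2-fold (log2 fold change −0.81, SE 0.13, limma adjusted p = 5.5e-05, and log2 fold change −0.45, SE 0.13, limma adjusted p = 0.0093).

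CDH24, a classical cadherin that binds catenins, had 231 and 279 normalized reads without and 141 and 147 with TNF-α in control cells, and 145 and 107 without and 96.4 and 83.9 with TNF-α in mutp53-depleted cells. It was called lower at 0 h at −1.02 (SE 0.17, limma adjusted p = 4.9e-05), close to the 2-fold limit, and not at 16 h (−0.67, SE 0.17, limma adjusted p = 0.0024). The call at 0 h ended under 5 alternatives, among them the fits without replicate B of mutp53-depleted cells (−0.80) or of control cells (−0.88), edgeR and DESeq2. CDH23, a large cadherin of the tip links of hair cells, had 36.3 and 42.4 normalized reads without and 33.8 and 38.4 with TNF-α in control cells, and 10.7 and 20.6 without and 9.22 and 13.6 with TNF-α in mutp53-depleted cells, with no overlap of the lines. Its log2 fold change was −1.34 (SE 0.36, limma adjusted p = 0.004) at 0 h and −1.60 (SE 0.36, limma adjusted p = 0.001) at 16 h. At 0 h the call of CDH23 ended without replicate A of mutp53-depleted cells (−0.90). CDH11, a cadherin of mesenchymal cells, was near the limit of detection. It had 5.81 and 3.03 normalized reads without and 8.70 and 14.2 with TNF-α in control cells, and 1.34 and 0 without and 0.840 and 1.23 with TNF-α in mutp53-depleted cells, which are 10 reads against 2 at 0 h and 19 against 2 at 16 h. As a ratio of reads per read on genes, control cells had 5.45 times the level of mutp53-depleted cells at 0 h (95% exact binomial interval 1.16 to 51.2) and 10.95 times at 16 h (2.64 to 97.0). These intervals cover counting error only and are no test of a difference between the lines. The reason is that CDH11 passed the minimum through control cells alone, with group means of 4.42 and 11.5 normalized reads against 0.670 and 1.03. Its difference is therefore a description, although it is counted among the 5 and 4 cadherins above. At 0 h it was no longer counted under 7 alternatives, 4 of which left out a library. These were control 0 h replicate A (−1.40) or B (−2.15), control 16 h replicate B (−1.78) and mutp53-depleted 0 h replicate B (−1.16).

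**Figure D2:**
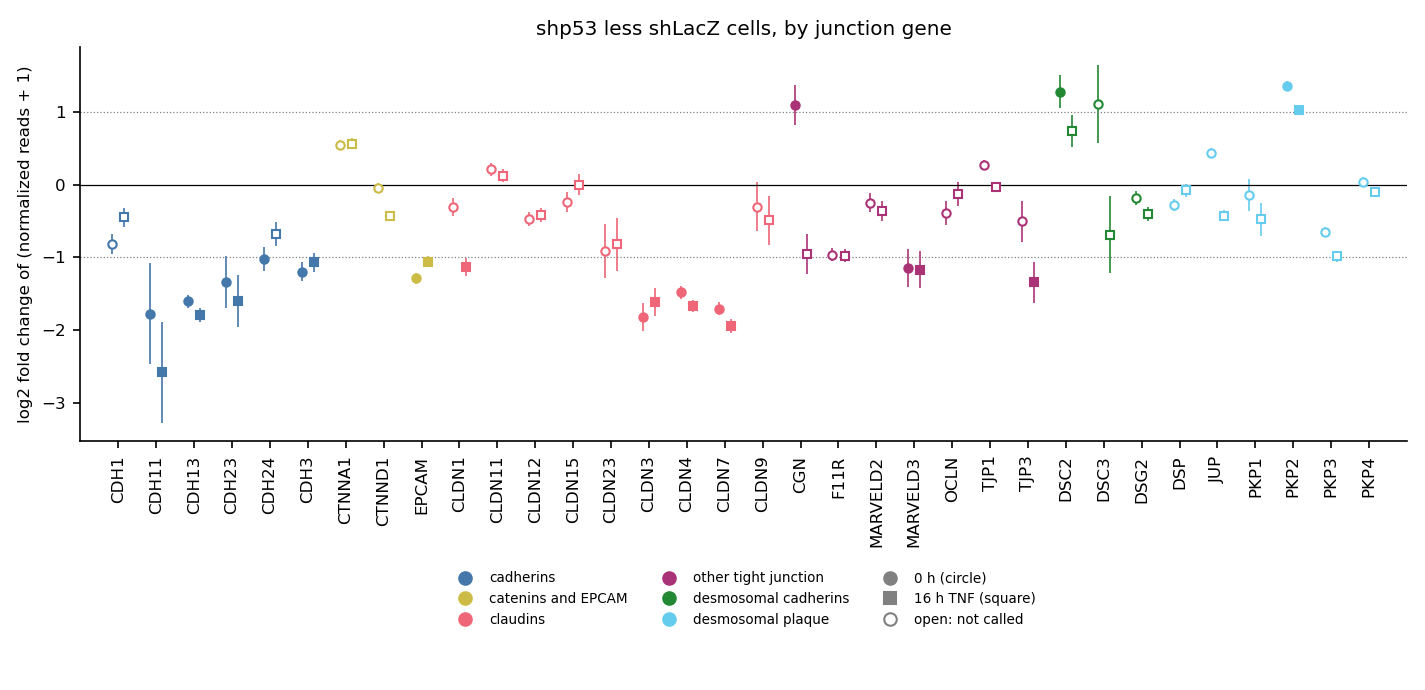
Log2 fold change of the junction genes between the lines, mutp53-depleted less control, with its standard error, at 0 h (circles) and after 16 h of TNF-α (squares), on the log2(normalized reads + 1) scale. Filled symbols were called, and dotted lines mark 2-fold. The filled symbols of cadherins and claudins all lie below 0, whereas PKP2, DSC2 and CGN have a filled symbol above 0.

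Of the 8 other tight junction genes, 1 (12.5%) was called lower and 1 (12.5%) higher at 0 h, against 9.55% and 5.89% of all genes tested. The numbers at 0 h are thus close to those of any 8 genes. At 16 h, 2 (25%) were called lower, against 10.2% of all genes. MARVELD3, a 4-pass membrane protein of the tight junction related to occludin, had 95.8 and 84.8 normalized reads without and 74.4 and 45.5 with TNF-α in control cells, and 43.6 and 37.0 without and 26.0 and 24.7 with TNF-α in mutp53-depleted cells. It fell at both times (log2 fold change −1.15, SE 0.26, limma adjusted p = 0.0011, and log2 fold change −1.17, SE 0.26, limma adjusted p = 0.0009), at 16 h with a call that ended without replicate A of control cells (−0.82). TJP3, or ZO-3, a scaffold that binds claudins and occludin, had 73.3 and 68.2 normalized reads without and 47.4 and 49.8 with TNF-α in control cells, and 56.3 and 43.9 without and 25.1 and 13.6 with TNF-α in mutp53-depleted cells. It was not called at 0 h (−0.50, SE 0.28, limma adjusted p = 0.15) and fell at 16 h (log2 fold change −1.34, SE 0.28, limma adjusted p = 0.00061), a call that ended without replicate B of mutp53-depleted cells (−0.92). F11R, or JAM-A, an immunoglobulin-like adhesion protein of the tight junction, was at −0.96 (SE 0.09, limma adjusted p = 3.9e-08) and −0.97 (SE 0.09, limma adjusted p = 3.1e-08), just short of 2-fold, and was called at 16 h without replicate B of control cells (−1.06) or of mutp53-depleted cells (just past 2-fold). The core scaffold TJP1 (ZO-1), with OCLN (occludin) and MARVELD2 (tricellulin), ranged from −0.39 to 0.27 at 0 h and were not called at either time. CGN, or cingulin, which ties tight junctions to actomyosin, had 27.6 and 51.5 normalized reads without and 143 and 152 with TNF-α in control cells, and 89.8 and 75.4 without and 101 and 56.8 with TNF-α in mutp53-depleted cells. It was called higher at 0 h (log2 fold change 1.10, SE 0.28, limma adjusted p = 0.0025) and at 16 h was lower, at −0.95 (SE 0.28, limma adjusted p = 0.0076), just under 2-fold, and called without replicate A of mutp53-depleted cells (−1.36). The call at 0 h ended without replicate A of control cells (0.67) or of mutp53-depleted cells (0.98), as well as less the neighbours' median (0.95).

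Of 3 desmosomal cadherins and 6 plaque genes, none was called lower, 2 were called higher at 0 h and 1 at 16 h. Of all genes tested, 9.55% were lower and 5.89% higher at 0 h, and 10.2% and 5.03% at 16 h. With so few genes, the lack of lower calls is close to these shares and is no result about desmosomal genes. PKP2, a plakophilin that recruits desmoplakin to the membrane, had 1274 and 1357 normalized reads without and 1060.5 and 1171 with TNF-α in control cells, and 3389 and 3385 without and 2279 and 2287 with TNF-α in mutp53-depleted cells. It rose 2.57-fold at 0 h (log2 fold change 1.36, SE 0.07, limma adjusted p = 3.7e-11) and 2.05-fold at 16 h (log2 fold change 1.03, SE 0.07, limma adjusted p = 1.2e-09). PKP2 lies on chromosome 12 among genes with medians of 0.69 and 0.66, and less those it had 0.67 and 0.37 and was not called. Without replicate A of control cells at 16 h it was at 0.96, also not called. DSC2, a desmocollin of simple epithelia, had 51.5 and 62.1 normalized reads without and 32.9 and 37.0 with TNF-α in control cells, and 143 and 136 without and 70.4 and 49.4 with TNF-α in mutp53-depleted cells. It rose at 0 h (log2 fold change 1.29, SE 0.22, limma adjusted p = 8.9e-05) and was at 0.74 (SE 0.22, limma adjusted p = 0.0094) at 16 h. DSG2, the desmoglein of simple epithelia and the highest desmosomal cadherin, had 951 and 1042 normalized reads without and 923 and 955 with TNF-α in control cells, and 948 and 810.4 without and 781 and 650.4 with TNF-α in mutp53-depleted cells and was not called. DSC3, a desmocollin of stratified epithelia, had at most 17.4 normalized reads in a library and was not called between the lines by limma (1.12 at 0 h), whereas edgeR called it higher at 0 h (1.35).

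Of the plaque genes, PKP3 had the highest level per kilobase in control cells at 0 h, close to DSP. In mutp53-depleted cells at 0 h PKP2 was above it (765.8 against 438.8 normalized reads per kilobase). PKP3 had 2055 and 1847 normalized reads without and 2006 and 1956 with TNF-α in control cells, and 1226 and 1256 without and 1029 and 975 with TNF-α in mutp53-depleted cells. It was lower in all mutp53-depleted libraries, at −0.65 (SE 0.07, limma adjusted p = 6.3e-07) at 0 h and −0.98 (SE 0.07, limma adjusted p = 3.3e-09) at 16 h, both under 2-fold. At 16 h PKP3 was called without replicate B of control cells (just past 2-fold) or replicate A of mutp53-depleted cells (−1.02). JUP, or plakoglobin, which serves both desmosomes and adherens junctions, was at 0.44 (SE 0.07, limma adjusted p = 6.7e-05) at 0 h and −0.43 (SE 0.07, limma adjusted p = 9.6e-05) at 16 h, on opposite sides of 0. DSP, which links the plaque to keratins, PKP1 and PKP4 ranged from −0.28 to 0.04 at 0 h and were not called at either time.

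**Figure D3:**
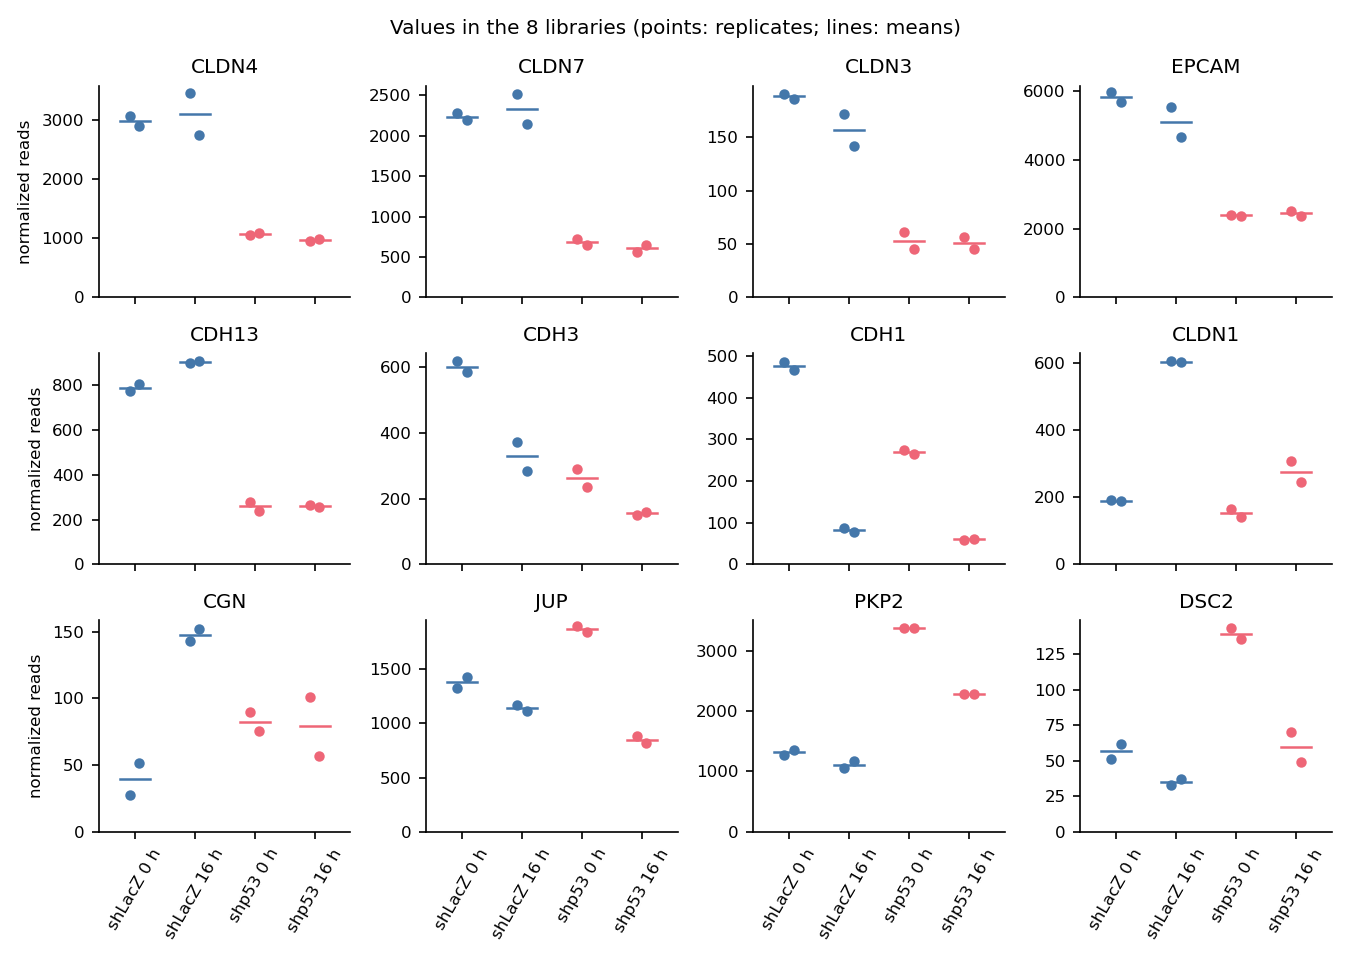
Normalized reads of 12 junction genes in the 8 libraries, with a point for each replicate and a line at the mean of each group, control cells in blue and mutp53-depleted cells in red, on axes that start at 0. CLDN4, CLDN7, CLDN3, EPCAM and CDH13 differ between the lines at both times, CDH1 drops with TNF-α in both lines, and CGN and CLDN1 rise most in control cells.

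The change of a gene between the lines was set beside that of its neighbours on the chromosome because neighbouring genes can differ together between the lines. For 24 of the 35 genes the neighbours' median lay within 0.25 of 0 at 0 h, and for 5 it was at least 0.5 away from 0, namely CLDN3 and CLDN4 on chromosome 7, CLDN1 and CLDN11 on chromosome 3 and PKP2 on chromosome 12. For CLDN7, CDH13, CDH23, EPCAM and MARVELD3 the neighbours' medians were all under 0.2 in size at both times, and their calls stood at both times with the median removed. With it removed, 11 of the 35 genes were called at 0 h and 11 at 16 h, against 13 and 12 without this step. Over all 14800 genes the same step took the number called from 2285 to 1770 at 0 h and from 2255 to 1794 at 16 h. F11R became called at both times (−1.02 and −1.02).

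**Figure D4:**
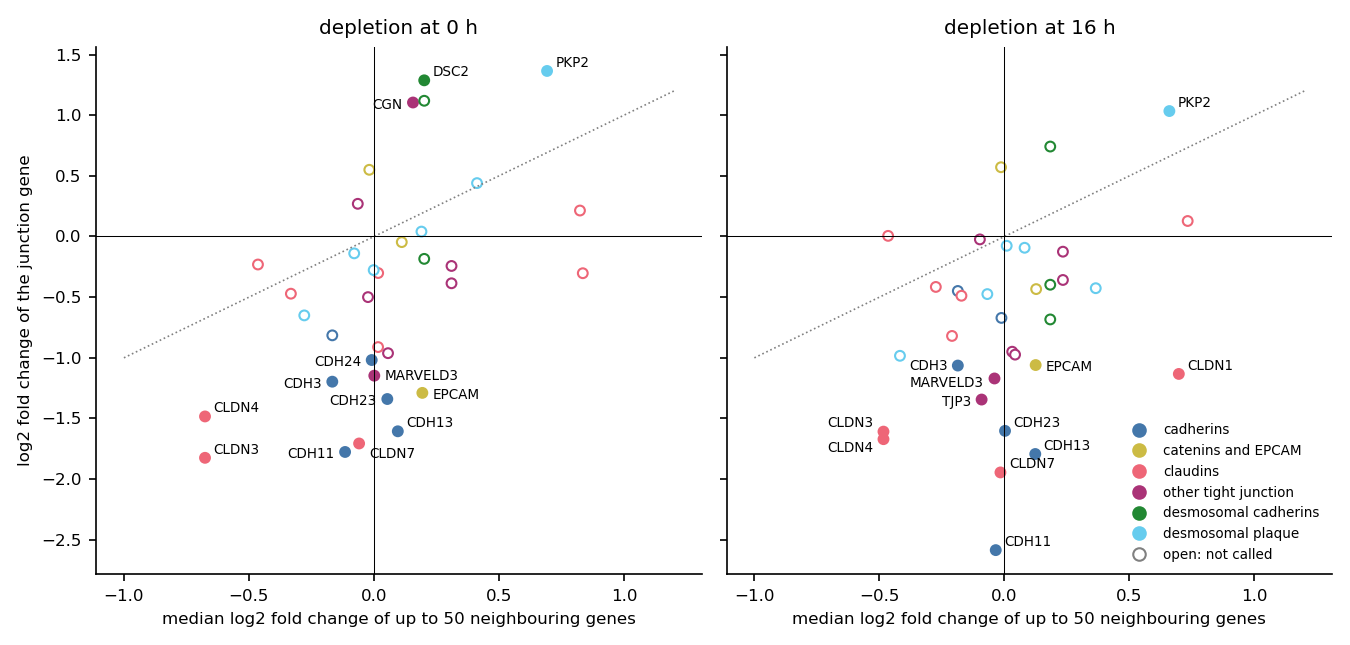
Log2 fold change of the junction genes between the lines against the median log2 fold change of up to 50 neighbouring tested genes, at 0 h (left) and 16 h (right), with called genes filled and named and a dotted line where the gene equals its neighbours. CLDN3 and CLDN4 lie to the left, among neighbours that were also lower, PKP2 to the right among neighbours that were also higher, and CLDN1 at 16 h below 0 among neighbours above 0.

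The response to 16 h of TNF-α was compared within each line. In control cells 3 of the 35 genes (8.57%) rose and 1 (2.86%) fell, against 2.97% and 4.27% of all genes tested. In mutp53-depleted cells 1 gene (2.86%) rose and 5 (14.3%) fell, against 1.86% and 4.5% of all genes. Without replicate B of mutp53-depleted cells at 16 h only 2 of the 35 (5.71%) fell in those cells, against 3.64% of all genes, since DSC2, DSC3 and TJP3 were no longer called. The median over the 35 genes was −0.17 for control cells and −0.31 for mutp53-depleted cells, beside −0.05 and −0.06 over all genes.

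By limma with all libraries, CDH1 had the largest change of the 35 genes with TNF-α in either line. In mutp53-depleted cells DSC3, on few reads, fell nearly as much as a ratio of means (4.47-fold). From 485 and 467 normalized reads CDH1 went to 87.0 and 78.2 in control cells. It went from 275 and 265 to 58.7 and 61.7 in mutp53-depleted cells. This is a fall of 5.76-fold (log2 fold change −2.51, SE 0.13, limma adjusted p = 1.1e-10) and 4.49-fold (log2 fold change −2.15, SE 0.13, limma adjusted p = 1.4e-09), and the difference between the lines did not pass the test (interaction 0.37, SE 0.19, limma adjusted p = 0.43). Every treated library was below every untreated library, and both calls were kept under the alternatives tried. CDH3 was also lower with TNF-α but under 2-fold, at −0.88 (SE 0.13, limma adjusted p = 5.2e-05) and −0.75 (SE 0.13, limma adjusted p = 0.00031), and was called in control cells without their replicate A at 16 h (−1.08). CDH13 did not follow, at 0.20 (SE 0.09, limma adjusted p = 0.13) and 0.01 (SE 0.09, limma adjusted p = 0.95).

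The claudins that differed most between the lines were nearly level with TNF-α. CLDN3, CLDN4 and CLDN7 had log2 fold changes of −0.27, 0.04 and 0.06 in control cells and −0.05, −0.14 and −0.18 in mutp53-depleted cells, and EPCAM had −0.19 and 0.04, with none past the adjusted p. CLDN1 was the claudin that rose, from 191 and 188 to 606 and 603 normalized reads in control cells (log2 fold change 1.67, SE 0.12, limma adjusted p = 6.8e-09). In mutp53-depleted cells it went from 165 and 143 to 307 and 247, which was under 2-fold (log2 fold change 0.84, SE 0.12, limma adjusted p = 4.6e-05). The response was smaller in mutp53-depleted cells (interaction −0.83, SE 0.17, limma adjusted p = 0.011). Between the lines, CLDN1 was called lower in mutp53-depleted cells at 16 h and was not called at 0 h. Without replicate B of mutp53-depleted cells at 16 h, the difference between the lines at 16 h was at −0.98 and the interaction at −0.67, neither called. The call of the interaction also ended without replicate A of mutp53-depleted cells at 0 h (−0.73) and with the neighbours' median removed (−0.69).

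CGN rose with TNF-α in control cells, from 27.6 and 51.5 to 143 and 152 normalized reads (log2 fold change 1.94, SE 0.28, limma adjusted p = 2.9e-05), and stood at 89.8 and 75.4 and 101 and 56.8 in mutp53-depleted cells (log2 fold change −0.11, SE 0.28, limma adjusted p = 0.81). The difference between these responses, −2.05 (SE 0.39, limma adjusted p = 0.0052), was called under every alternative. CGN thus began higher in mutp53-depleted cells and was overtaken by control cells after TNF-α, although the 16 h libraries of mutp53-depleted cells differ from each other by more than its 0 h libraries. TJP3 fell with TNF-α in mutp53-depleted cells (log2 fold change −1.38, SE 0.28, limma adjusted p = 0.0012) and was at −0.53 (SE 0.28, limma adjusted p = 0.19) in control cells. The interaction of TJP3 did not pass the test, at −0.84 (SE 0.40, limma adjusted p = 0.37), and its call in mutp53-depleted cells ended without replicate B at 16 h (−0.96).

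Among desmosomal genes, PKP1, a plakophilin best known from the skin, rose in both lines. It went from 40.6 and 42.4 to 93.8 and 135 normalized reads in control cells (log2 fold change 1.42, SE 0.22, limma adjusted p = 9.4e-05) and from 36.9 and 38.4 to 88.0 and 74.0 in mutp53-depleted cells (log2 fold change 1.08, SE 0.22, limma adjusted p = 0.0013). Without replicate A of mutp53-depleted cells at 16 h the latter was at 0.96 and not called. JUP went from 1326 and 1432 to 1172 and 1113 normalized reads in control cells, a change under 2-fold (log2 fold change −0.27, SE 0.07, limma adjusted p = 0.01), and from 1895 and 1844 to 882 and 818 in mutp53-depleted cells (log2 fold change −1.14, SE 0.07, limma adjusted p = 2.3e-09). The fall of JUP was the larger in mutp53-depleted cells, with an interaction of −0.87 (SE 0.10, limma adjusted p = 0.0001) that was called under every alternative. DSC2 fell with TNF-α in mutp53-depleted cells (log2 fold change −1.23, SE 0.22, limma adjusted p = 0.0004) and was at −0.68 (SE 0.22, limma adjusted p = 0.029) in control cells, with an interaction that did not pass the test (−0.55, SE 0.31, limma adjusted p = 0.49). DSC3 had 5.08 and 7.57 normalized reads without and 3.87 and 8.54 with TNF-α in control cells, and 17.4 and 12.3 without and 4.19 and 2.47 with TNF-α in mutp53-depleted cells. It was called lower with TNF-α in mutp53-depleted cells on few reads (log2 fold change −1.89, SE 0.54, limma adjusted p = 0.013). The calls of DSC2 (−0.98) and DSC3 (−1.59) ended without replicate B of mutp53-depleted cells at 16 h, and that of DSC3 also without replicate A at 0 h (−1.65) and under DESeq2 (−2.07).

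The interaction, depletion at 16 h less depletion at 0 h, was called at the adjusted p alone, and is the test of whether the response to TNF-α differs between the lines. It was called below 0 for 4 of the 35 genes (11.4%), CGN, CLDN1, JUP and CTNND1, against 2.21% of all genes tested, and above 0 for 0 of the 35, against 0.655%. Without replicate B of mutp53-depleted cells at 16 h, or replicate A at 0 h, 2 of the 35 (5.71%) were called below 0, against 1.26% and 1.12% of all genes in the same fits. CTNND1 had 2367 and 2538 normalized reads without and 2489 and 2629 with TNF-α in control cells, and 2439 and 2309 without and 1889 and 1899 with TNF-α in mutp53-depleted cells. Only the mutp53-depleted cells at 16 h stand apart from the other groups, and the interaction of −0.39 (SE 0.10, limma adjusted p = 0.036) was lost under 10 of 17 alternatives, with an adjusted p of 0.02 to 0.2 over the fits of limma, edgeR and DESeq2. PKP2 was called as well without replicate A of control cells at 16 h (−0.40).

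**Figure D5:**
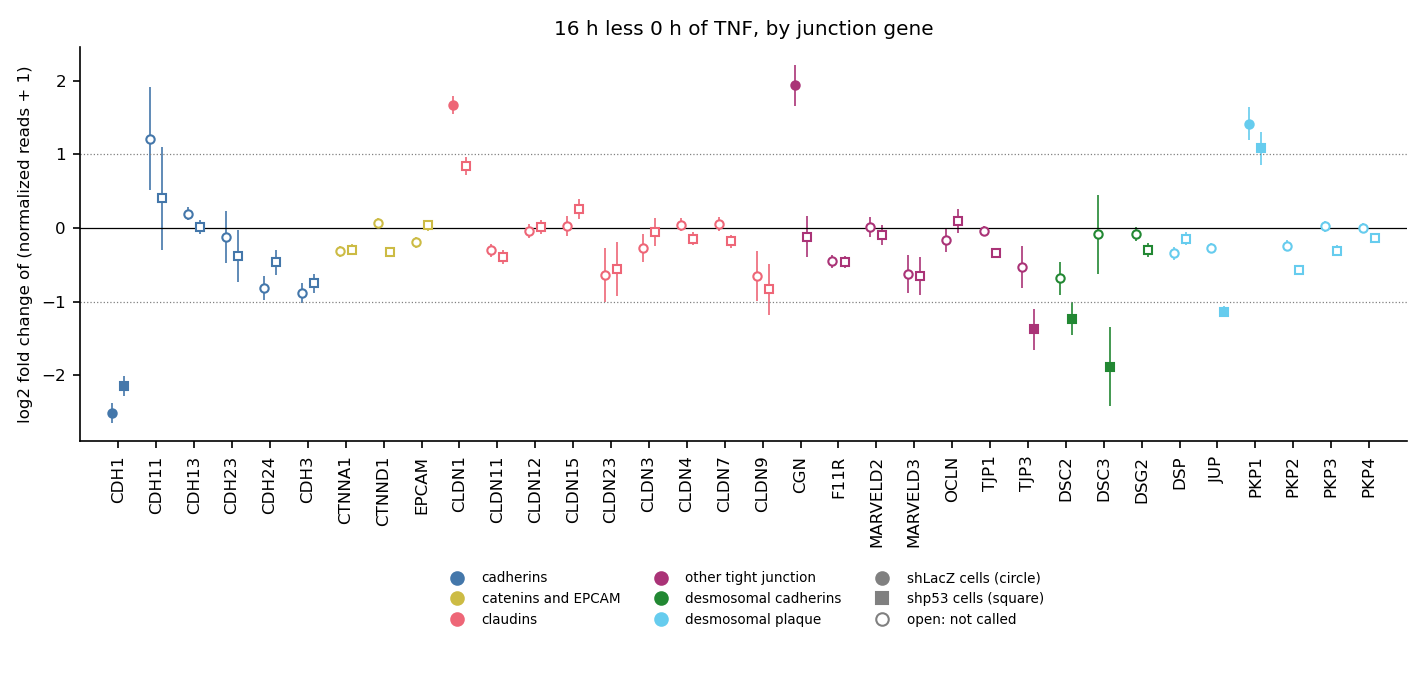
Log2 fold change of the junction genes with 16 h of TNF-α, with its standard error, in control cells (circles) and mutp53-depleted cells (squares), on the log2(normalized reads + 1) scale. Filled symbols were called, and dotted lines mark 2-fold. CDH1 is below −2 in both lines, PKP1 is above 1 in both, and CLDN1, CGN and JUP are lower in mutp53-depleted cells than in control cells.

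A list of 58 other junction genes, of which 49 passed the minimum, was set beside these. Of the 49, 5 were called higher and 5 lower in mutp53-depleted cells at 0 h, and 5 higher and 10 lower at 16 h. Of all genes tested, 5.89% were higher and 9.55% lower at 0 h, and 5.03% and 10.2% at 16 h, so that the number lower at 0 h is close to that expected of any 49 genes. The medians of the list were −0.14 at 0 h and −0.24 at 16 h. PVRL3, or nectin-3, an immunoglobulin-like adhesion protein of adherens junctions, had 2.18 and 9.09 normalized reads without and 0.970 and 7.11 with TNF-α in control cells, and 172 and 191 without and 174 and 188 with TNF-α in mutp53-depleted cells, from 1 to 6 reads in a control library. It was the largest rise of the list at both times (log2 fold change 5.51, SE 0.52, limma adjusted p = 7.5e-08 at 16 h). Its partner PVRL1, or nectin-1, went the other way and had 3630.1 and 3315 normalized reads without and 2529 and 2087 with TNF-α in control cells, and 1093 and 990.0 without and 1041 and 1017 with TNF-α in mutp53-depleted cells (log2 fold change −1.74, SE 0.09, limma adjusted p = 2.4e-11 at 0 h). Of the genes for proteins of tricellular junctions, where 3 cells meet, ILDR2 rose (2.56 at 0 h and 2.32 at 16 h) and its relative ILDR1 fell (−1.99 and −2.40). In size the next changes at 0 h were those of GJB1, the gap junction protein connexin 32 (−1.41), of CRB3, a polarity protein of the apical membrane (−1.27), and of MAGI1, a scaffold of tight junctions (1.26). At 16 h those of MPZL2, an immunoglobulin-like epithelial adhesion protein (−2.08), PERP (−1.94) and CRB3 (−1.89) came after PVRL3, ILDR1 and ILDR2.

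With TNF-α, 4 of these 49 genes rose and 2 fell in control cells, and 2 rose and 4 fell in mutp53-depleted cells, beside 2.97% and 4.27% of all genes in control cells and 1.86% and 4.5% in mutp53-depleted cells. PERP, a 4-pass membrane protein that desmosomes need and a known target of wild-type p53, had 2893 and 3013 normalized reads without and 14869 and 14275 with TNF-α in control cells, and 1803 and 1536 without and 4684 and 3080.3 with TNF-α in mutp53-depleted cells. It rose in both lines (log2 fold change 2.30, SE 0.13, limma adjusted p = 1.4e-10 in control cells, and log2 fold change 1.19, SE 0.13, limma adjusted p = 1.1e-06 in mutp53-depleted cells), and less so in mutp53-depleted cells (interaction −1.11, SE 0.18, limma adjusted p = 0.0013). MPZL2 had 2864 and 2813 normalized reads without and 7665 and 6927 with TNF-α in control cells, and 2139.7 and 1618 without and 1993 and 1479.7 with TNF-α in mutp53-depleted cells, a rise in control cells (1.36, SE 0.12, limma adjusted p = 7.9e-08) that was not seen in mutp53-depleted cells (−0.12, SE 0.12, limma adjusted p = 0.53, interaction −1.48, SE 0.17, limma adjusted p = 6.7e-05). The gap junction gene GJB2, which encodes connexin 26, rose by 1.68 and 1.17 in control and mutp53-depleted cells (interaction −0.50, SE 0.13, limma adjusted p = 0.047). GJB1 had −1.66 and −1.32 in the same order. PPL, or periplakin, which links desmosomes to keratins, had −1.26 and −1.75. PLEKHA7, an adherens junction protein that binds p120 catenin, and ILDR2 fell in mutp53-depleted cells (−1.16 and −1.13). Both were also lower with TNF-α in control cells but under 2-fold (−0.62 and −0.90), and neither interaction was called (−0.53 and −0.23). The interaction was also called for PVRL1 (0.58), the single gene of the list above 0, and for DLG1, a polarity scaffold (−0.60), which makes 1 above and 4 below 0, against 0.655% and 2.21% of all genes.

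Of 22 genes for repressors and activators of junction genes, 13 passed the minimum. Between the lines, 1 was called higher and 3 lower at 0 h, and 2 higher and 4 lower at 16 h, against 5.89% and 9.55% of all genes at 0 h and 5.03% and 10.2% at 16 h. ZEB1, a repressor known to silence CDH1, had 105 and 102 normalized reads without and 143 and 125 with TNF-α in control cells, and 299 and 332 without and 397 and 388 with TNF-α in mutp53-depleted cells and was higher in all mutp53-depleted libraries (1.60, SE 0.12, limma adjusted p = 6.1e-09 and 1.54, SE 0.12, limma adjusted p = 9.2e-09). SNAI2, or SLUG, a repressor of the same class, was called higher at 16 h with at most 25.9 normalized reads in a library (1.39). SNAI1 was not called in any comparison, and ZEB2 and TWIST1 had 0 reads in every library. HNF4A, an activator of gut epithelial genes, had 546 and 547 normalized reads without and 280.4 and 310.1 with TNF-α in control cells, and 135 and 128 without and 45.3 and 35.8 with TNF-α in mutp53-depleted cells and fell at both times (−2.05, SE 0.14, limma adjusted p = 1.2e-09 and −2.84, SE 0.14, limma adjusted p = 1.9e-11), as did FOXA2 (−2.19 and −3.17). FOXA1, another activator of epithelial genes, had 27.6 and 31.8 normalized reads without and 21.3 and 21.3 with TNF-α in control cells, and 1.34 and 1.37 without and 2.52 and 3.70 with TNF-α in mutp53-depleted cells, which are 1 to 3 reads in a mutp53-depleted library. At 0 h FOXA1 reached the minimum in control cells alone, with group means of 29.7 against 1.355 normalized reads. At 16 h the means were 21.3 and 3.11, the latter just above the minimum. Its difference is a description, although it is counted among the 3 and 4 called lower. ELF3, an epithelial activator, fell at 16 h (−1.94, SE 0.15, limma adjusted p = 7.2e-09). With TNF-α, 1 of the 13 fell in control cells, CDX2 (−1.07), and 2 fell in mutp53-depleted cells, HNF4A (−1.68) and ELF3 (−1.26), against 4.27% and 4.5% of all genes. The interaction was called for 3, all below 0, against 2.21% of all genes: ELF3 (−2.06), HNF4A (−0.79) and KLF5 (−0.50). The genes of this list were named after their values were seen, and their part in the changes of the junction genes was not tested.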

How the data were processed

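The deposited table holds mRNA-seq values for 8 libraries. Per the study's methods and the submitters' processing notes, the authors mapped reads with STAR, counted them on RefSeq exons with HOMER and used edgeR for their own comparisons. The signal values deposited by the authors are counts times 1 factor per library, and 100% of them came out as whole reads within 0.05 read. On those reads, edgeR called 14 and 12 of the 35 junction genes between the lines at 0 h and 16 h. Of all 14800 genes it called 2336 and 2249. The plan foresaw a count test as the main one for raw counts and limma for normalized values. The other deposited columns, log2 fold changes and p-values of the authors' comparisons, were not used. The table's header gives hg19 and the notes give hg38; gene positions here are those of the table. Gene length in the table is the authors' value.

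Values were tested as log2(value + 1) with limma 3.58.1 (lmFit, contrasts.fit, eBayes with trend) in R 4.3.3, in a model of 4 group means. The same fit was also run on simulated data with known changes, and its outcome there is not reported here. The replicates are stated to be biological, but how cultures were kept apart is not given in the sources used here. Alternatives were median ratio scaling, no minimum, a minimum mean of 10, added values of 0.1 or 5, a replicate block, the neighbours' median removed, edgeR 4.0.16 (quasi-likelihood) and DESeq2 1.42.0 on reads, and each library left out. Values in every library are given for genes called in any comparison, for CDH1 and EPCAM and for the highest per kilobase of each role in control cells at 0 h. Of the other junction genes, those named are the 3 largest changes called in each direction between the lines and all called with TNF-α or in the interaction. Some genes that these rules give are not reported here. The members and lists were chosen with earlier results of these data known. Python 3.11.15 was used, with matplotlib 3.10.9 for plots and scipy 1.17.1, pandas 2.3.3 and numpy 2.4.6 for tables.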

Additional observations from a re-analysis of the deposited data

Results flagged for a closer look

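The response to TNF-α differed between the lines, by the interaction test of limma over all genes, for 4 junction genes. For CGN, the interaction was −2.05 (SE 0.39, limma adjusted p = 0.0052), and CGN rose in control cells alone. It was −0.83 (SE 0.17, limma adjusted p = 0.011) for CLDN1, which was higher with TNF-α in both lines and more so in control cells. For JUP, which was lower with TNF-α in both lines and more so in mutp53-depleted cells, it was −0.87 (SE 0.10, limma adjusted p = 0.0001). For CTNND1, lower with TNF-α in mutp53-depleted cells, it was −0.39 (SE 0.10, limma adjusted p = 0.036). The call of CTNND1 was lost under 10 of 17 alternatives and that of CLDN1 under 3 of 17.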

How the results depend on the processing

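The 35 genes had 39 calls over the 5 comparisons. Of these, 21 were kept under each alternative that tested them and 18 were lost under at least 1, and 0 changed sign. The counts of genes called stayed within 1.5 times those reported under all alternatives that kept all libraries. Over the fits that each lack 1 library, the number called ranged from 11 to 13 of the 35 at 0 h between the lines (13 with all libraries), from 8 to 15 at 16 h (12), from 4 to 5 with TNF-α in control cells (4), from 3 to 6 with TNF-α in mutp53-depleted cells (6) and from 2 to 5 for the interaction (4). Over all 14800 genes the same fits called 1874 to 2310 at 0 h between the lines (2285 with all libraries), 2004 to 2297 at 16 h (2255), 845 to 1098 and 748 to 974 with TNF-α in control and mutp53-depleted cells (1072 and 941) and 208 to 421 for the interaction (424). The lowest counts of the 35 came without replicate A of control cells at 16 h for the lines at 16 h, without replicate B of mutp53-depleted cells at 16 h for TNF-α in those cells (3), and without that library or replicate A of mutp53-depleted cells at 0 h for the interaction (2). With a minimum mean of 10, CDH11 and DSC3 were not tested. The call of CDH11 at 16 h is counted among the 21 kept, over 16 of 17 alternatives. It remains a description and not a tested difference, because CDH11 passed the minimum through control cells alone. Removing the neighbours' median from mutp53-depleted libraries leaves the control libraries as they were. A group left with 1 library was assumed to vary like the others. No pairing of replicates by their letters A and B is stated in the sources used here. The correlation of A less B between groups lay between −0.04 and 0.12 over genes, and the replicate block changed no call of the 35 genes, with 13, 12, 4, 6 and 4 in the order above, while over all genes the interaction calls went from 424 to 559. edgeR called 14 of the 35 genes between the lines at 0 h and DESeq2 11. Over all 14800 genes they called 2336 and 1949, against 2285 by limma. Reads are too few to place CDH11, DSC3 and the genes under the minimum with any precision.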
